A study of Mus musculus with 1 sample.

Results

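The Toll-like receptor genes examined here were the 10 named members *Tlr1*, *Tlr2*, *Tlr3*, *Tlr4*, *Tlr5*, *Tlr6*, *Tlr7*, *Tlr8*, *Tlr9* and *Tlr13*, out of 54532 genes in the deposited table. They were chosen by gene name, and no measured value is part of that rule. Each symbol was matched to its Ensembl identifier through GENCODE M21. The study compared bone marrow (BM) cells that carry c-kit, a receptor of blood progenitors, between Ctrl mice and *Gadd45g*+/- mice, which keep an allele of that gene, with a myeloproliferative neoplasm (MPN). The values used here come from 1 RNA-seq library, labelled Ctrl, of FACS-sorted c-kit+ BM cells of wild type C57BL/6 mice, which the label describes as without lineage markers or Sca-1. The age of the Ctrl mice, their number and whether they carried *Vav-Cre*, the transgene used to delete *Gadd45g* in blood cells, are not given for this library. The cells from mice with MPN were not analysed here, so the levels below give no direction of change with *Gadd45g* loss, and no test between conditions was possible. Levels are in FPKM, the number of sequenced fragments on a gene divided by its length in kilobases and scaled to the total of the library, and a gene was called detected at 1 FPKM.

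Toll-like receptors are membrane proteins that recognise molecules of microbes through leucine-rich repeats and signal through a cytoplasmic TIR domain. Some sit at the cell surface and bind bacterial lipids or proteins, while others sit in endosomes and bind nucleic acids. All but TLR3 signal through the adaptor MyD88 to NF-κB, and hematopoietic stem and progenitor cells carry some of these receptors, whose ligands can push such cells toward myeloid output.

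Of the 10 receptor genes, 9 were detected at 1 FPKM, against 46.8% of the 21995 protein-coding genes of the table. *Tlr13* and *Tlr2* had the highest levels and *Tlr3* was the member not detected. The median of the members was 4.85 FPKM, beside 4.22 FPKM for the 14860 protein-coding genes above 0, and 7 of the 10 members lay above that median. With a minimum of 10 FPKM only *Tlr13* and *Tlr2* passed, 2 of 10 members against 21.2% of protein-coding genes. With a minimum of 0.1 FPKM all 10 passed, against 59.1%, and all 10 had at least 10 recovered fragments, against 56.1%. Over all genes of the table, noncoding ones included, 22.2% reached 1 FPKM. Together the 10 genes held 0.0196% of the summed FPKM.

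For all 10 members the FPKM value times the exon length was a whole multiple of 1 common step, so that the number of fragments behind each value could be recovered. They had 5049 fragments in all. The step implies a scaling total of 15783891 fragments, and the multiples of all genes, rounded where they were not whole, summed to 17113323. Whole multiples alone summed to 15899824, also above that total, and the difference was not explained. The intervals below are 95% Wilson intervals from these fragments. They cover counting error only, because the spread between mice cannot be known from 1 library.

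**Figure D1:**
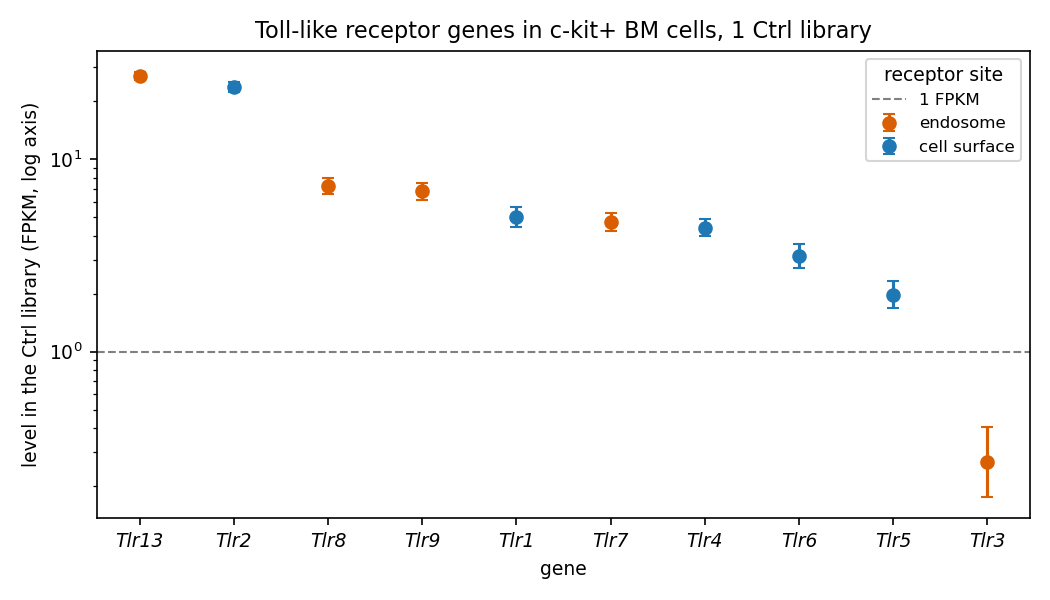
Level of each Toll-like receptor gene in the Ctrl library, in FPKM on a log axis, ordered by level. Points are the deposited values, bars are 95% Wilson intervals of counting error, colour gives the receptor's site and the dashed line marks 1 FPKM. *Tlr13* at 27.0 FPKM and *Tlr2* at 23.7 FPKM stand above the other 8 genes, and *Tlr3* at 0.268 FPKM is the single gene below the line.

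Among the receptors of the cell surface, *Tlr2* (ENSMUSG00000027995), whose product binds bacterial lipopeptides, was highest. It is encoded on chromosome 3 (reverse strand, 83836272 to 83841767; all positions are in GRCm38) and had 23.7 FPKM from 1126 fragments (interval, 22.3 to 25.1). The TLR2 protein works as a dimer with TLR1, which reads triacylated lipopeptides, or with TLR6, which reads diacylated ones. *Tlr1* (ENSMUSG00000044827) had 5.0 FPKM from 264 fragments (interval, 4.43 to 5.64). *Tlr6* (ENSMUSG00000051498) had 3.13 FPKM from 184 fragments (interval, 2.71 to 3.61). *Tlr2* was thus 4.73 times *Tlr1* (95% exact interval of the ratio, 4.14 to 5.43) and 7.57 times *Tlr6* (interval, 6.47 to 8.89). Messenger RNA of the shared partner was therefore above the sum of both alternative partners in this library.

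*Tlr4* (ENSMUSG00000039005), which encodes the receptor for lipopolysaccharide, spans chromosome 4 from 66827584 to 66930284 on the forward strand and had 4.40 FPKM from 386 fragments (interval, 3.98 to 4.86). *Tlr2* was 5.38 times *Tlr4* (interval, 4.79 to 6.05). *Tlr5* (ENSMUSG00000079164), the gene of the flagellin receptor on chromosome 1 from 182954788 to 182976044, had 1.97 FPKM from 149 fragments (interval, 1.68 to 2.31), the lowest of the 5 surface receptors. At this depth it was still clear of the detection minimum, since its whole interval lay above 1 FPKM.

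Among the receptors of endosomes, *Tlr13* (ENSMUSG00000033777) had the highest level of the whole family. Its product recognises a conserved stretch of bacterial ribosomal RNA, and humans carry no functional counterpart. The gene occupies bases 106143204 to 106160493 of chromosome X, forward strand, and had 27.0 FPKM from 1833 fragments (interval, 25.8 to 28.2). There were 1993 protein-coding genes at or above it, so that 90.9% of protein-coding genes were lower. *Tlr13* was 1.14 times *Tlr2* (interval, 1.058 to 1.23), a difference larger than counting error but small beside the gap to the next gene.

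*Tlr7* and *Tlr8*, whose products bind single-stranded RNA and its breakdown products, are neighbours on the reverse strand of chromosome X with 40599 bases between them. *Tlr8* (ENSMUSG00000040522), from 167242696 to 167264329, had 7.24 FPKM from 410 fragments (interval, 6.58 to 7.98). *Tlr7* (ENSMUSG00000044583), from 167304929 to 167330558, had 4.70 FPKM from 303 fragments (interval, 4.20 to 5.26). Within the pair *Tlr8* was 1.54 times *Tlr7* (interval, 1.32 to 1.79). *Tlr13* was 3.72 times *Tlr8* (interval, 3.34 to 4.16) and 5.74 times *Tlr7* (interval, 5.08 to 6.50), and the 3 genes on chromosome X together held 46.3% of the family's summed FPKM.

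*Tlr9* (ENSMUSG00000045322), which encodes the receptor for unmethylated CpG DNA, occupies bases 106222598 to 106226883 of chromosome 9, forward strand. It had 6.78 FPKM from 372 fragments (interval, 6.12 to 7.501), and 1.44 times the level of *Tlr7* (interval, 1.23 to 1.68). *Tlr3* (ENSMUSG00000031639), the gene of the double-stranded RNA receptor, occupies bases 45395665 to 45411080 of chromosome 8, reverse strand, and had 0.268 FPKM from 22 fragments (interval, 0.177 to 0.405). *Tlr13* was 101 times *Tlr3* (interval, 66.4 to 161). Of the exonic bases of *Tlr3*, 381 of 5207 also belong to *Gm45542*, an antisense gene listed at 0. The source of the counts does not state whether strand was used, and reads on that overlap cannot be assigned to either gene without it.

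In the order of levels, 6 of the 9 neighbouring pairs differed by more than counting error and 3 did not. *Tlr8* and *Tlr9* could not be told apart at this depth (ratio 1.07, interval 0.927 to 1.23). The same held for *Tlr1* and *Tlr7* (ratio 1.063, interval 0.898 to 1.26), for *Tlr7* and *Tlr4* (ratio 1.07, interval 0.916 to 1.25) and for *Tlr1* and *Tlr4* (ratio 1.14, interval 0.967 to 1.33). Divided by exon length, the members therefore fell into steps, with *Tlr13* and then *Tlr2* at the top and *Tlr8* and *Tlr9* next. *Tlr1*, *Tlr7* and *Tlr4* followed without a resolved order, and then came *Tlr6*, *Tlr5* and *Tlr3*. The largest gaps between neighbours were those from *Tlr5* to *Tlr3*, at 7.36 times (interval, 4.69 to 12.1), and from *Tlr2* to *Tlr8*, at 3.27 times (interval, 2.92 to 3.67).

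**Figure D2:**
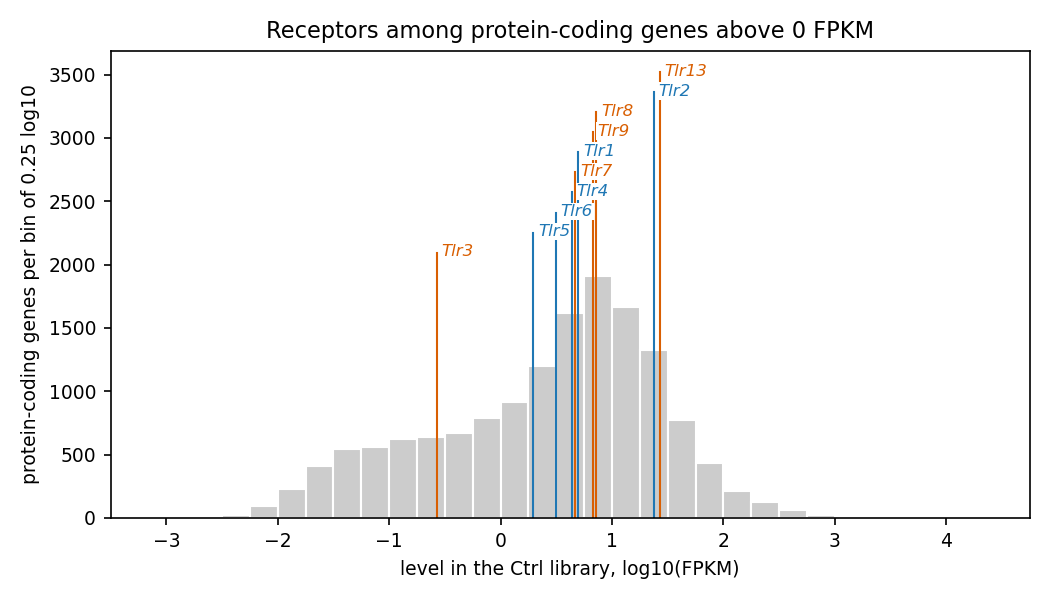
Distribution of protein-coding genes above 0 FPKM in the Ctrl library by log10(FPKM), as grey bars in bins of 0.25, with a vertical line at the level of each receptor (orange for endosomal, blue for surface; line height only separates the names). The lines of 7 receptors, from *Tlr5* to *Tlr8*, crowd between 1.97 and 7.24 FPKM near the bulk of the genes, while *Tlr2* and *Tlr13* lie on the upper slope and *Tlr3* on the lower.

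The 5 endosomal receptors summed to 46.0 FPKM and the 5 surface receptors to 38.2 FPKM, a ratio of 1.20. This ratio turned on the highest gene, since without *Tlr13* it was 0.498. *Tlr13* and *Tlr2* together held 60.2% of the family's summed FPKM, and with both left out the endosomal receptors were again higher, at 1.31 times. The medians were 6.78 FPKM for the endosomal and 4.40 FPKM for the surface receptors, and the range of the surface receptors lay wholly within that of the endosomal ones.

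Division by gene length changed the make-up of the family in part. *Tlr13* held 32.1% of the summed FPKM and 36.3% of the fragments, and *Tlr2*, with 3014 exonic bases the shortest member, held 28.1% and 22.3%. *Tlr4*, with 5556 exonic bases the longest, held 5.23% of the summed FPKM and 7.65% of the fragments, and rose from 7th by FPKM to 4th by fragments. When fragments were divided by the length of the longest coding transcript instead, *Tlr4* came 5th, with 6.00 FPKM, and *Tlr13*, *Tlr2*, *Tlr8* and *Tlr9* kept the first 4 places in the same order. By that length *Tlr9* had 6.78 FPKM, so the step from *Tlr9* to the next gene was narrower, and it was not tested.

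**Figure D3:**
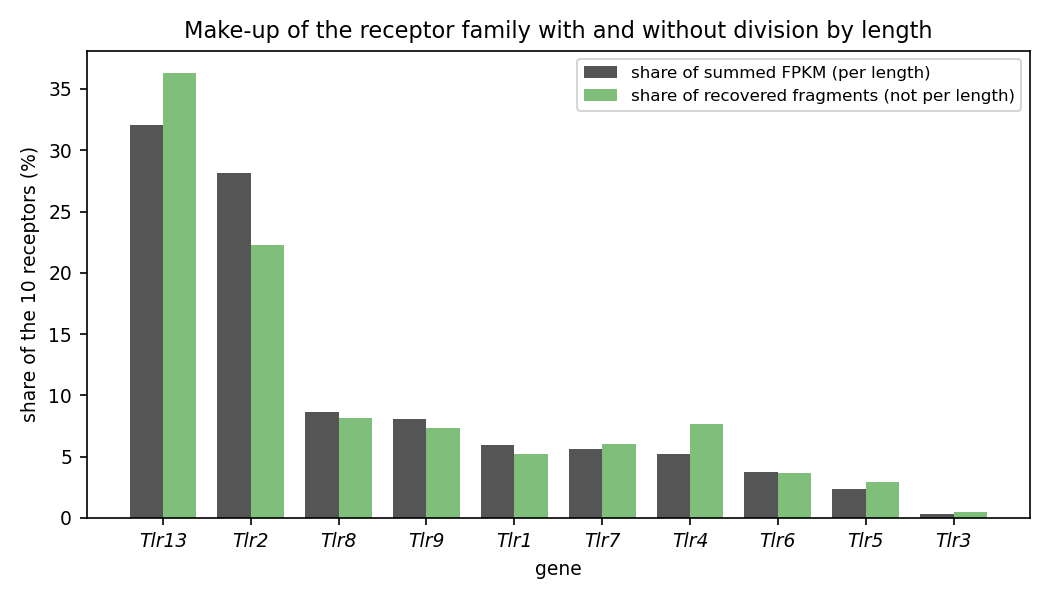
Share of each receptor in the family total, in percent, for summed FPKM (dark bars, divided by exon length) and for recovered fragments (green bars, not divided by length). *Tlr13* is first and *Tlr2* second on either scale, and *Tlr4*, the longest gene, has the largest relative gain of the 10 genes when length is not divided out.

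The genes also shared a structure that was not itself used to choose them. As members of 1 gene family they are not independent cases of it, and the share below was not tested. In the longest coding transcript, 7 of the 10 members had at least 99% of their coding sequence in 1 exon, against 16.8% of 21916 protein-coding genes. *Tlr1*, *Tlr2*, *Tlr5* and *Tlr6* had all of it in 1 exon. *Tlr7*, *Tlr8* and *Tlr9* had 99.9%, the rest being a few bases in an upstream exon. *Tlr13* just missed the limit at 98.8%, *Tlr4* had 89.7% and *Tlr3* 68.3% over 4 coding exons. Coding lengths ran from 2352 bases in *Tlr2* to 3150 in *Tlr7*.

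*Tlr1* and *Tlr6* lie next to each other on chromosome 5 (reverse strand, bases 64924679 to 64933563 and 64952031 to 64960097), with 18467 bases between them. They are the pair of members whose sequences are alike enough that counting may be affected, which was not tested. Their coding sequences share an ungapped stretch of 792 bases that differs at 7 positions and is 99.1% identical, with 229 bases in the longest identical run. In GRCm38 the stretch is chr5:64925148-64925939 in *Tlr1* and chr5:64953439-64954230 in *Tlr6*, within a coding exon in each case. A part of 200 bases is shown because it holds 3 of the 7 differences, at chr5:64925228-64925427 in *Tlr1* and chr5:64953519-64953718 in *Tlr6*. It is taken from the GENCODE M21 transcripts and written 5′ to 3′ along the coding strand, with capitals marking the bases that differ.
Tlr1: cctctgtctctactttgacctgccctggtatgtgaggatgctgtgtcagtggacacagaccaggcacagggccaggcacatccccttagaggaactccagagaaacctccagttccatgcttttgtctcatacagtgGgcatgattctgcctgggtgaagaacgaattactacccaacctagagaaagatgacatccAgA
Tlr6: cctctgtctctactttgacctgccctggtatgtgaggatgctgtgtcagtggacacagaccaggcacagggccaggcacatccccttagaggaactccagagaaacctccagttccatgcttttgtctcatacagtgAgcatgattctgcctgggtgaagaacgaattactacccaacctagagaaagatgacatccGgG

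A read that falls wholly inside an identical run cannot be assigned to either gene by its sequence. Of all words of 50 bases in its transcripts, *Tlr1* shared 15.4% with other genes, mostly with *Tlr6*, and *Tlr6* shared 12.3%. The share was 5.30% for *Tlr3*, all with *Gm45542*, and 0.216% for *Tlr4*. The other 6 members shared no word of this length with transcripts of other genes. How the authors counted such reads was not given, so the levels of *Tlr1* and *Tlr6* are less certain than their intervals. *Tlr1* was 1.598 times *Tlr6* (interval, 1.32 to 1.94). It was 1.66 times *Tlr6* when the shared words were taken out of both lengths and the fragments were left unchanged.

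Further mouse receptors of the family were read beside the members. *Tlr12* had 1.52 FPKM from 76 fragments (interval, 1.21 to 1.90) and *Tlr11* had 0.310 FPKM from 16 fragments (interval, 0.191 to 0.503). The products of these genes act together in the response to profilin of protozoan parasites. *Tlr11* was just above *Tlr3*, with overlapping intervals, and *Tlr12* could not be told apart from *Tlr5* at this depth (ratio 0.769, interval 0.576 to 1.02).

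The genes around the receptors were read by lists. The counts of detected genes in each list stand beside 46.8% of protein-coding genes detected at 1 FPKM. All 6 genes for ligand binding and co-receptors were detected, with a median of 18.4 FPKM. *Cd14*, which hands lipopolysaccharide to TLR4, had 31.8 FPKM, a value that was no whole multiple of the step and therefore has no interval. *Ly96*, whose product MD-2 is the part of the TLR4 complex that binds lipopolysaccharide, had 2.98 FPKM from 48 fragments (interval, 2.25 to 3.95), or 0.677 times *Tlr4* (interval, 0.490 to 0.915). *Cd180*, which encodes the TLR4-like protein RP105, had 11.2 FPKM, and *Ly86*, the gene of its partner MD-1, had 20.3 FPKM. *Cd180* was 2.54 times *Tlr4* (interval, 2.24 to 2.87) and *Ly86* was 6.80 times *Ly96* (interval, 5.09 to 9.28), so the RP105 pair stood above the TLR4 pair in mRNA level per length. *Cd36*, a scavenger receptor that assists TLR2, was highest of the list at 62.0 FPKM, and *Lbp*, the gene of lipopolysaccharide-binding protein, had 16.6 FPKM.

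The 9 genes for transport and processing of endosomal receptors were all detected, with a median of 27.9 FPKM. *Unc93b1*, whose product carries the nucleic acid receptors from the endoplasmic reticulum to endosomes, had 130.0 FPKM, without an interval. *Hsp90b1*, which encodes the folding chaperone gp96, had 104 FPKM (interval, 102 to 107), and *Cnpy3*, its co-chaperone for these receptors, had 27.9 FPKM. *Slc15a4*, a lysosomal transporter needed for signals of TLR7 and TLR9, had 9.39 FPKM. Among the proteases that cut the receptor ectodomains, *Ctss* had 199 FPKM and *Ctsb* 145 FPKM, while *Lgmn* had 20.6 FPKM and *Ctsl* 6.87 FPKM.

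Of 6 adaptor genes, 5 were detected. *Myd88*, the adaptor of all members but *Tlr3*, had 30.3 FPKM from 1230 fragments (interval, 28.6 to 32.0), close above *Tlr13* at a ratio of 1.12 (interval, 1.04 to 1.21). *Ticam1*, whose product TRIF is the adaptor of TLR3 and of internalised TLR4, had 6.65 FPKM from 314 fragments (interval, 5.95 to 7.43), and *Myd88* was 4.55 times *Ticam1* (interval, 4.02 to 5.17). *Tirap*, which links TLR2 and TLR4 to MyD88, had 9.11 FPKM, and *Ticam2*, which links TLR4 to TRIF, had 3.71 FPKM. *Pik3ap1*, the gene of BCAP, which joins Toll-like receptor signalling to PI3K, had 39.5 FPKM, the highest of the adaptors. *Sarm1*, which is best known in neurons, had 0.0338 FPKM from 3 fragments.

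All 17 kinase and ubiquitin ligase genes were detected, between 5.51 FPKM for *Ikbke* and 36.8 FPKM for *Tab2*. The kinases that join MyD88 were *Irak1* at 27.0 FPKM, *Irak4* at 10.9 FPKM and *Irak2* at 10.6 FPKM. *Traf6*, the ubiquitin ligase downstream of them, had 6.81 FPKM, and *Map3k7*, which encodes the kinase TAK1, had 13.9 FPKM. All 8 transcription factor genes were detected too, led by *Irf5* at 38.5 FPKM and *Rela* at 33.5 FPKM, while *Irf7* had 29.8 FPKM and *Relb* was lowest at 6.16 FPKM.

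Genes of inhibitors were all detected as well, 10 of 10, with a median of 13.7 FPKM. *Nfkbia*, the gene of the NF-κB inhibitor that NF-κB itself induces, was highest at 98.6 FPKM. *Irak3*, which encodes the inactive kinase IRAK-M, had 14.6 FPKM, *Tnfaip3*, which encodes the deubiquitinase A20, had 15.3 FPKM, and *Socs1* was lowest at 2.51 FPKM. Of 8 response genes, 5 were detected. *Zfp36* had 184 FPKM, *Cxcl2* 112 FPKM, *Nfkbiz* 23.8 FPKM, *Ptgs2* 15.6 FPKM and *Tnf* 5.99 FPKM. *Il10* had 0.677 FPKM and *Nos2* 0.0287 FPKM, and *Ifnb1* is listed at 0, which allows up to 0.253 FPKM. Levels of response genes in 1 condition do not measure whether any receptor was engaged.

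**Figure D4:**
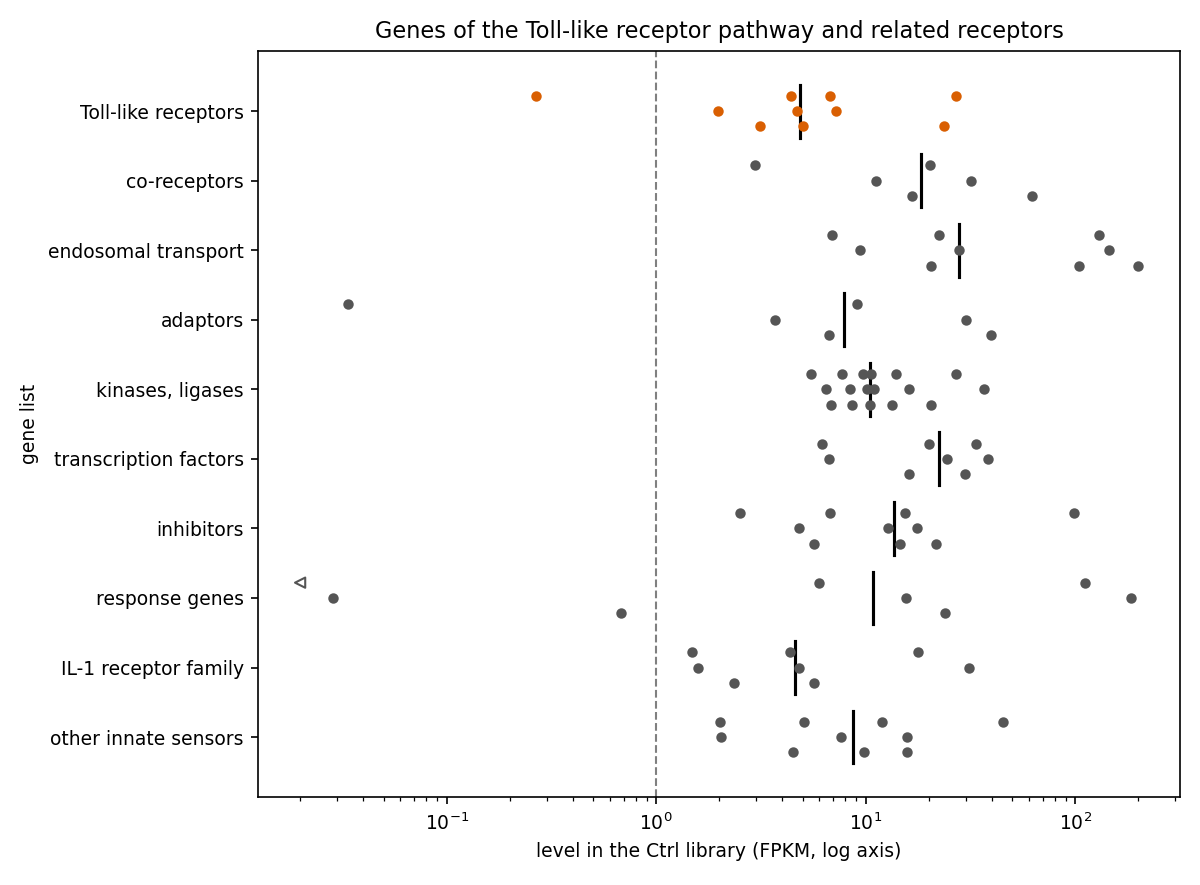
Level of each gene of the pathway lists and of related receptors in the Ctrl library, in FPKM on a log axis. A point is a gene (vertical scatter only separates points), the short black line is the median of the list, the dashed line is 1 FPKM, and the open triangle is *Ifnb1*, listed at 0 and drawn at the left edge. The median of the receptors, 4.85 FPKM, lies to the left of those of every list except the IL-1 receptor family, at 4.60 FPKM.

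Related receptors were read beside the members. All 8 genes of the interleukin-1 receptor family, whose signalling receptors share the TIR domain, were detected, with a median of 4.60 FPKM. They ran from 1.48 FPKM for *Il1r1* to 31.2 FPKM for the decoy receptor gene *Il1r2*. All 10 of the other innate sensors were detected, with a median of 8.71 FPKM, from 2.02 FPKM for *Nlrc4* to 45.2 FPKM for *Clec7a*, the gene of the β-glucan receptor. These medians lie beside the 4.85 FPKM of the Toll-like receptors as a description, and the difference was not tested.

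The library also held mRNA of marker genes of maturing and mature blood cells, although the label names a gate without lineage markers. For the counts that follow, the share of protein-coding genes detected at 1 FPKM was 46.8%. All 7 neutrophil genes were detected, from 109 FPKM for *Cxcr2* to 8470 FPKM for *Ngp*. So were all 6 monocyte and macrophage genes, from 7.37 FPKM for *Mrc1* to 51.5 FPKM for *Csf1r*. The 5 B cell genes were all detected too, from 15.8 FPKM for *Cd22* to 173 FPKM for *Cd79a*. All 5 plasmacytoid dendritic cell genes were detected, from 1.32 FPKM for *Ccr9* to 85.6 FPKM for *Bst2*. Of 5 conventional dendritic cell genes 4 were detected, from 0.142 FPKM for *Xcr1*, the one not detected, to 4.90 FPKM for *Flt3*. The paper also uses the product of *Flt3* to gate progenitor cells, so this gene does not mark dendritic cells alone. Of the 6 progenitor genes all were detected, with 7.17 FPKM for *Kit* itself and 5.22 FPKM for *Cd34*, and the granule protein genes *Mpo*, *Elane*, *Prtn3* and *Ctsg* between 241 and 781 FPKM. Among antigens that the gate names or commonly uses, *Itgam*, which encodes CD11b, had 52.9 FPKM, *Ly6g* 194 FPKM, *Ptprc*, which encodes CD45 and is shared by blood cells in general, 40.5 FPKM, *Ly6a*, which encodes Sca-1, 28.5 FPKM and *Cd5* 4.50 FPKM. Mature cells of these types carry Toll-like receptors, and the part of their RNA in the receptor levels was not tested. In a bulk library fewer cells of a type and less RNA per cell cannot be told apart.

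**Figure D5:**
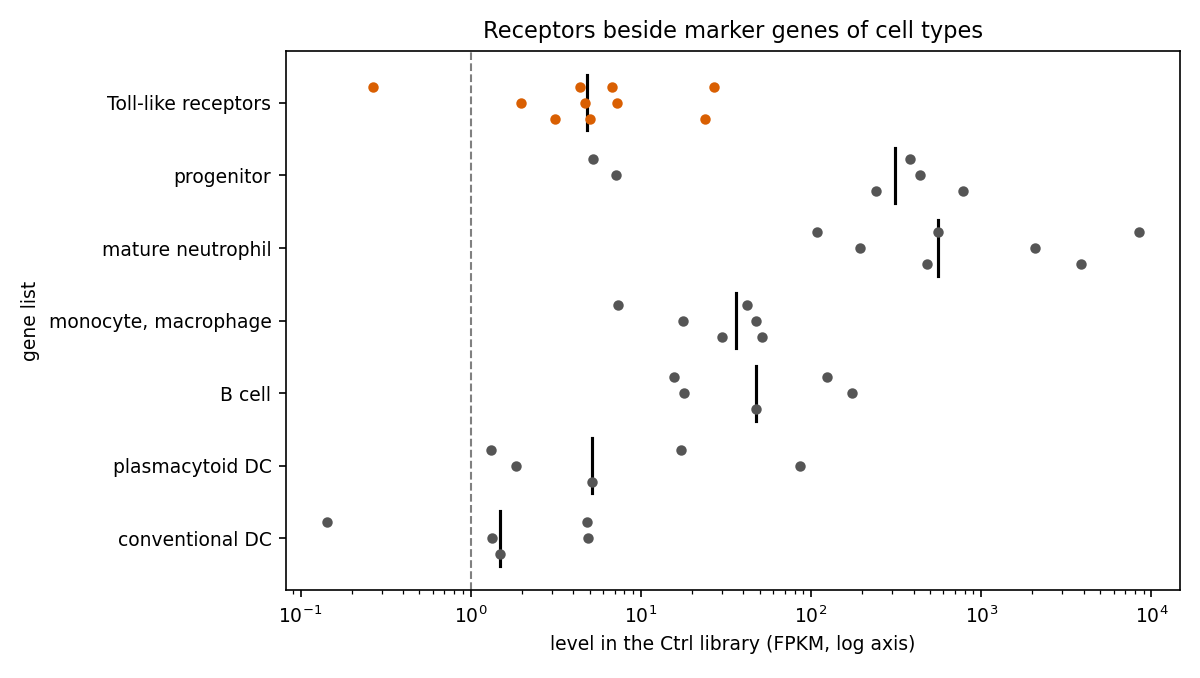
Levels of the Toll-like receptors beside marker genes of cell types in the Ctrl library, in FPKM on a log axis. A point is a gene, the short black line is the median of its list and the dashed line is 1 FPKM. The neutrophil markers, from 109 to 8470 FPKM, all lie above every receptor, and the conventional dendritic cell (DC) markers, up to 4.90 FPKM, have the lowest median. The progenitor median, 310 FPKM, is set by granule protein genes, while *Kit* and *Cd34* lie at 7.17 and 5.22 FPKM.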

How the data were processed

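The deposited values are FPKM, 1 per gene, made by the authors from RNA of sorted c-kit+ BM cells sequenced on an Illumina HiSeq instrument. The submitters' processing notes name HISAT2 2.0.5, featureCounts 1.5.0-p3 and mm10, which is GRCm38. The annotation release and strand setting are not given in the sources used here. Names, coordinates and exon lengths came from GENCODE M21 on GRCm38, which held 54495 of 54532 identifiers. FPKM times exon length was a whole multiple of a step, within 0.01, for 96.4% of genes above 0 and 99.9% on the members' chromosomes. The multiples were taken as fragments. Ratios have exact (Clopper-Pearson) intervals from these. The values of *Cd14*, *Unc93b1*, *Pik3ap1*, *Ticam2*, *Nfkb2*, *Rela*, *Csf1r*, *Nlrc4* and *Cd5* were no whole multiple of the step and have no interval. Recovery and intervals were tested on simulated data, the outcome of which is not given here and does not account for the unexplained total.

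The receptors, taken by name, and the lists were chosen with earlier results of these data known. The text names the members, *Tlr11*, *Tlr12* and, in each list, the highest, the lowest, those at 0 and those whose role is explained. The sensor *Mb21d1* was matched under its newer name. The limit of a gene at 0 is that of 3 fragments. Sequence sharing was counted in words of 50 bases over all transcripts. Alternatives were other minimums, totals, lengths and members. The scripts ran in Python 3.11.15 with scipy 1.17.1, pandas 2.3.3, numpy 2.4.6 and matplotlib 3.10.9.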

Additional observations from a re-analysis of the deposited data

How the results depend on the processing

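No paired analysis was possible because a single library was used, which also left no replicate to omit. Of 38 alternatives, 20 left a count within 1.5 times or a value within its counting interval, 17 moved it and 1 reversed it. The ratio of endosomal to surface receptors, 1.20 in FPKM, was reversed to 0.498 without *Tlr13*, was 1.39 in recovered fragments, and was 1.31 without *Tlr13* and *Tlr2*, an alternative chosen after seeing the data, as was the ratio of *Tlr1* to *Tlr6* without shared words. *Tlr13* over *Tlr2* was 1.63 in recovered fragments, because *Tlr2* is the shorter gene. The family share, 0.0196%, was 0.0265% without the 10 most abundant genes, 0.0204% without mitochondrial genes and 0.0295% in recovered fragments over the summed multiples of all genes, or 0.0320% over the total that the step implies, a denominator added after seeing the data. The median of 4.85 FPKM was 5.29 without those 10 genes, 5.76 with the longest coding transcript as length, and 11.3 in TPM, a change of unit alone. With a minimum of 10 FPKM, which 21.2% of protein-coding genes reached, the detected genes were fewer by construction. They numbered 2 of 10 receptors, 2 of 6 adaptors, 10 of 17 kinases and ligases and 6 of 10 inhibitors. In the interleukin-1 receptor family 2 of 8 passed, and 4 of 10 other sensors. The remaining lists kept 5 of 6 co-receptors, 7 of 9 transport genes, 6 of 8 transcription factors and 4 of 8 response genes. At 1 FPKM the background share, 46.8% of protein-coding genes, was 22.2% over all genes of the table. Depth limits *Tlr3*, *Tlr11* and *Ly96*, with 22, 16 and 48 fragments.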
